A study of Mus musculus with 12 samples.

Results

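The unfolded protein response and the integrated stress response were followed in mouse liver through 34 genes, chosen by symbol from the gene table. All 34 were found among the 55401 genes counted, and all 34 had counts high enough to be among the 15982 genes tested. They were divided by their best known regulator. The ATF6/XBP1 group held 22 genes of protein folding, degradation and translocation, namely Hspa5, Hsp90b1, Dnajb9, Dnajb11, Dnajc3, Sdf2l1, Creld2, Hyou1, Pdia3, Pdia4, Pdia6, Calr, Canx, Manf, Herpud1, Sel1l, Syvn1, Edem1, Derl1, Derl3, Sec61b and Ssr1. The ATF4/CHOP group held 8 genes, namely Atf4, Atf3, Ddit3, Trib3, Asns, Chac1, Ppp1r15a and Sesn2. The remaining 4, Xbp1, Ern1, Atf6 and Eif2ak3, encode the sensors of the response and the factor XBP1.

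Poly-A RNA was sequenced from the livers of male C57BL/6 mice with the genotype LPCAT3flox/flox (FLOX) or LPCAT3flox/flox-cre (LKO), so every mouse carried floxed Lpcat3 alleles and the groups labelled LKO carried Cre as well. The labels do not name the promoter that drives Cre. Each genotype was given a control diet (NC) or, for 16 weeks, the HFHS diet that the labels use as a model of steatohepatitis, described with 30% sucrose in 1 place and with fructose in another. The age of 8 to 10 weeks in the labels is shorter than this feeding time, and no feeding time is given for the control diet. There were 3 libraries in each of the 4 groups, FLOX-NC, LKO-NC, FLOX-HFHS and LKO-HFHS, and the labels do not say whether these were 3 mice, so a p-value here is set against a spread that may be technical.

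Unfolded proteins in the endoplasmic reticulum (ER) are sensed by IRE1 alpha (gene Ern1), ATF6 and PERK (gene Eif2ak3). IRE1 alpha splices the messenger of Xbp1, and XBP1 together with cleaved ATF6 raises the transcription of chaperones and of the machinery that removes misfolded proteins. PERK phosphorylates the translation factor eIF2 alpha, which slows protein synthesis and favours the translation of ATF4, and other kinases reach the same step from amino acid shortage or haem deficiency, which is why this branch is called the integrated stress response. The liver secretes most plasma proteins, and its ER folding genes also follow feeding.

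The sequence around the start sites was searched for motifs of these regulators. The genes were divided by what is known of their regulation, so matches are not separate support for the division. RefSeq promoter windows (build GRCm38.p6, the same assembly as mm10; 250 bases before and 50 after the start site) were found for 30 of the 34 genes, and none was used for Hyou1, Manf, Derl1 and Atf6. The ER stress element ERSE, bound by ATF6 with NF-Y, was searched on both strands as CCAAT, any 9 bases, then CCACG. It was found in 9 of 19 windows of the ATF6/XBP1 group, in 0 of 8 of the ATF4/CHOP group and in 0 of 3 of the sensors, against 0.119% of all 32851 windows. The matches are shown because they carry the same frame around unlike spacers, with the fixed letters in capitals, each read on the strand that carries the motif.
Hspa5, chr2:34772025-34772043, + strand: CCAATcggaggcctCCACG
Hsp90b1, chr10:86705638-86705656, - strand: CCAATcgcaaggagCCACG
Hsp90b1, chr10:86705533-86705551, + strand: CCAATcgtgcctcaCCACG
Dnajc3, chr14:118937827-118937845, + strand: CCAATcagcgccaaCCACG
Creld2, chr15:88819520-88819538, - strand: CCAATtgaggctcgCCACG
Pdia6, chr12:17266491-17266509, + strand: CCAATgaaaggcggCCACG
Calr, chr8:84847075-84847093, + strand: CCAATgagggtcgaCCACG
Canx, chr11:50325800-50325818, - strand: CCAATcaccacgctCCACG
Syvn1, chr19:6046532-6046550, + strand: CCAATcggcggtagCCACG
Derl3, chr10:75893242-75893260, - strand: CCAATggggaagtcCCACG

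The shorter form ERSE-II (ATTGG, any base, then CCACG) was found in the windows of Herpud1 and Dnajb11, against 0.0365% of all windows. The C/EBP-ATF response element (CARE, searched as TGATGNAA), which ATF4 binds as a dimer with C/EBP proteins, was found in 4 of 8 windows of the ATF4/CHOP group (Atf3, Trib3, Asns and Chac1), in that of Herpud1 and in 3.97% of all windows. The XBP1 site UPRE, searched as TGACGTGG, was found in 0 of the 30 windows and in 0.676% of all. No search motif overlapped another in a window of a member. The Atf3 window lies 34706 bases from the gene start in the files, so it belongs to another start site. The 250 upstream bases of Creld2, Herpud1 and Sdf2l1, which fell with the HFHS diet in LKO livers, and of Asns, which rose with it in FLOX livers, are shown with the matched letters in capitals. The Sdf2l1 window and that of Ppp1r15a hold none of the 4 motifs, which says only that these exact letters are not there.
Creld2, chr15:88819396-88819645, + strand: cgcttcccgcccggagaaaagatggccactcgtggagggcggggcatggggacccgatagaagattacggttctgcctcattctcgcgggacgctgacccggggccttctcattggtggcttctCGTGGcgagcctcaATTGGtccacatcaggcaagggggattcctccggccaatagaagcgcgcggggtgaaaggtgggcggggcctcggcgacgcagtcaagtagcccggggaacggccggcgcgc
Herpud1, chr8:94386179-94386428, + strand: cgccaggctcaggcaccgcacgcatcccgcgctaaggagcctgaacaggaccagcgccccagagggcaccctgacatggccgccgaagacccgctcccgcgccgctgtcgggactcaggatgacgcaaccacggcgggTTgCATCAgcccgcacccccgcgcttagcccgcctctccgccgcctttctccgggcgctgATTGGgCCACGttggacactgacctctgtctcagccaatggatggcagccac
Sdf2l1, chr16:17132384-17132633, - strand: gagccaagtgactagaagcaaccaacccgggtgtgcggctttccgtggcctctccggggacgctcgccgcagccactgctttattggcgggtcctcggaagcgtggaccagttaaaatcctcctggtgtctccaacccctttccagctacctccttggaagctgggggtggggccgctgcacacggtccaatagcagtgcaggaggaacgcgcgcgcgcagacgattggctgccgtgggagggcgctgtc
Asns, chr6:7693210-7693459, - strand: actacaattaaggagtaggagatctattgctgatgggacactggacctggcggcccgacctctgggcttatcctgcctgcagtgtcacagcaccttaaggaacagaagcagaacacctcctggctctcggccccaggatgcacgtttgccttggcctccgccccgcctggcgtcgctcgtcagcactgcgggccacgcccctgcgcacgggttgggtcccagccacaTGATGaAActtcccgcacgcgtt

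**Figure D1:**
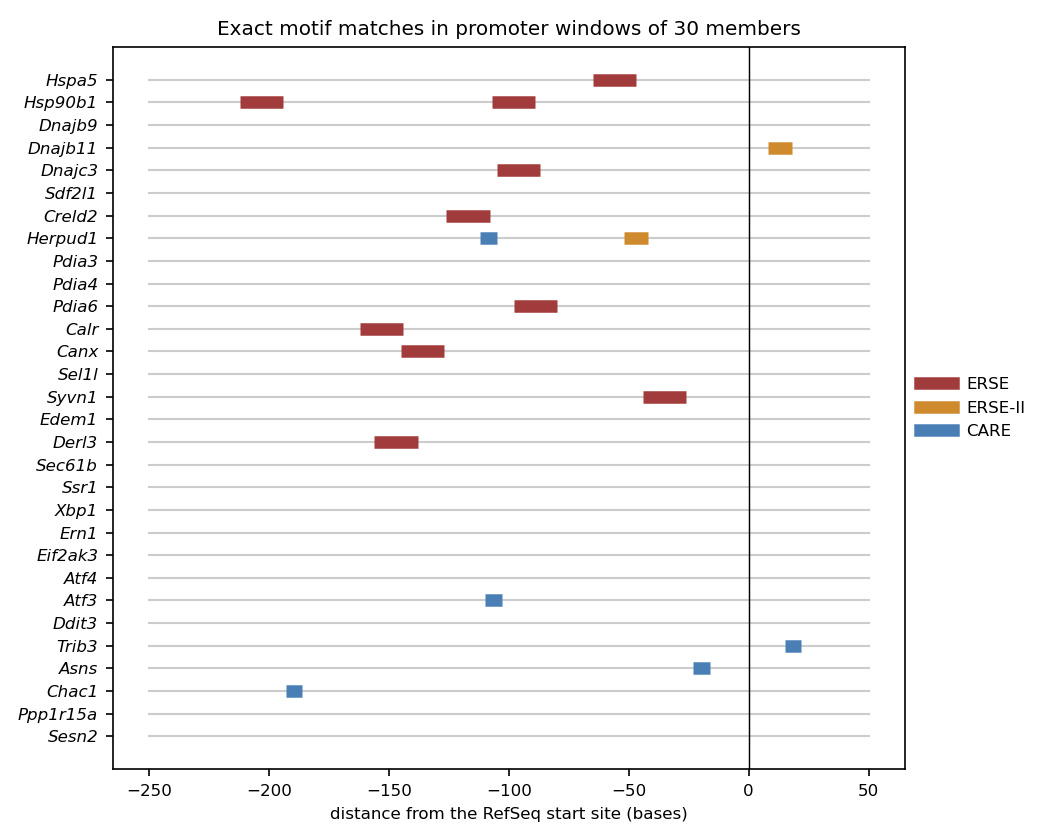
Exact motif matches in the promoter windows of 30 genes, by distance in bases from the RefSeq start site (vertical line). ERSE (red) was found in 9 windows, all of the ATF6/XBP1 group, ERSE-II (orange) in 2, and CARE (blue) in 5, of which 4 belong to the ATF4/CHOP group at the bottom.

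Total counts ran from 34951150 to 59205759 per library, and the 34 genes took 0.181% to 0.523% of them. Ribosomal and mitochondrial RNA took 21.1% to 62.7%, most in FLOX-NC replicate 1 (60.7%) and FLOX-HFHS replicate 1 (62.7%), whose TMM scaling factors were also the lowest. FLOX-NC replicate 1 had the lowest level of the 12 libraries for 13 of the 22 ATF6/XBP1 genes, and for 22.8% of all genes tested. Lpcat3, the targeted gene, stood at 49.7, 49.9 and 61.9 CPM (counts relative to the library total, scaled by TMM) in FLOX-NC, at 25.4, 65.0 and 19.4 in LKO-NC, at 72.6, 80.6 and 75.7 in FLOX-HFHS and at 24.96, 25.9 and 29.4 in LKO-HFHS. The library labelled LKO-NC replicate 2 thus goes against its label, and several results on that group are given with and without it. The fold changes of single genes and the counts of groups without overlap are given with it only. Hepatocyte markers were abundant in every library, with a sum over 14 genes between 56802 and 126629 CPM.

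Per length, the chaperones led. The authors' FPKM values averaged over the 12 libraries placed Hsp90b1 (the ER form of HSP90) highest at 191.7, followed by the calcium-binding lectin Calr at 177.6, the main ER chaperone Hspa5 (BiP) at 143.2, the disulphide isomerase Pdia3 at 123.6 and Herpud1 at 101.4. Of the ATF4/CHOP group only Atf4 had a mean over the 12 libraries above 10 FPKM, at 41.6. The sensors Ern1 and Eif2ak3 were low, at 2.83 and 1.74 FPKM. Derl3 (0.964), Asns (0.854) and the glutathione-degrading enzyme Chac1 (0.680) stood at the bottom, and the ranges over libraries of all 33 pairs of neighbours in this order overlapped. These FPKM values are not scaled by TMM, so they also carry the unequal ribosomal RNA share of the libraries.

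**Figure D2:**
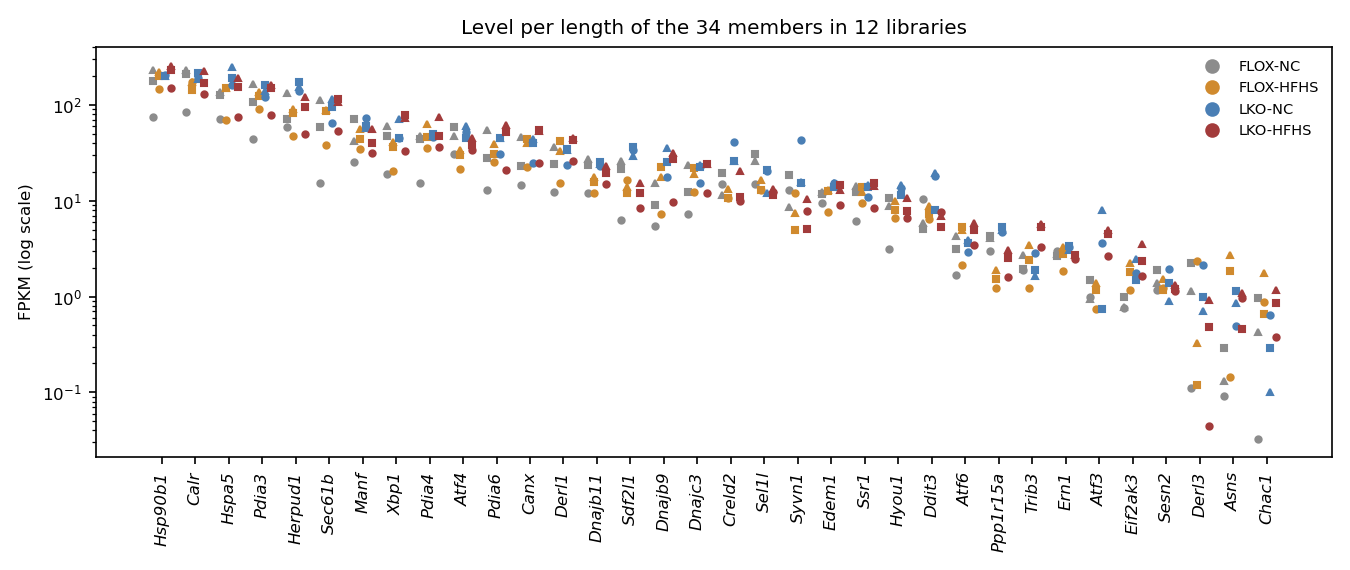
FPKM (log scale) of the 34 genes in the 12 libraries, ordered by their mean. Colours mark the groups and symbols the replicates (circle 1, square 2, triangle 3). The order runs from Hsp90b1 at a mean of 191.7 to Chac1 at 0.680, and the spread within a group is widest for the low genes Derl3, Asns and Chac1.

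The HFHS diet in FLOX livers changed 2 of the 34 genes (edgeR's quasi-likelihood test, Benjamini-Hochberg adjustment over all tested genes, threshold 0.05), and none of the 22 folding and degradation genes. Both calls came from the ATF4/CHOP group. Over all genes 2.9% were called, 1.6% as higher and 1.31% as lower. Asns, asparagine synthetase, rose. Ppp1r15a, also called GADD34, which guides a phosphatase to eIF2 alpha and so ends the translational block, fell.

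Ppp1r15a (chr7:45522916-45526268) stood at 11.7, 11.9 and 11.3 CPM in the FLOX-NC libraries and at 6.49, 4.61 and 5.74 in FLOX-HFHS. The groups did not overlap. Its log2 fold change was -1.05 ± 0.20 (SE), with an adjusted p of 0.0132 in edgeR. Asns (chr6:7675169-7693254) stood at 0.332, 0.484 and 0.304 CPM in FLOX-NC and at 0.578, 3.84 and 6.19 in FLOX-HFHS. These levels rest on few reads, 10 to 301 counts per library over the 12, and replicate 1 of the HFHS libraries lay far below the other two and just above the controls. The log2 fold change of Asns was 3.24 ± 0.75 (edgeR, adjusted p = 0.0379).

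Of the other 32 genes none was called. The kinase Eif2ak3 (PERK) stood at 5.57, 4.49 and 3.86 CPM in FLOX-NC and at 7.15, 9.001 and 10.95 in FLOX-HFHS, a log2 fold change of 0.97 ± 0.25 that missed the threshold (edgeR, adjusted p = 0.0605). Atf4 stood at 89.7, 121.2 and 94.1 CPM on the control diet and at 70.3, 61.3 and 69.4 on HFHS (-0.60 ± 0.19; edgeR, adjusted p = 0.112). The disulphide isomerase Pdia4 was higher in all HFHS libraries (0.59 ± 0.27; edgeR, adjusted p = 0.277). Asns, Eif2ak3 and Pdia4 were the 3 genes whose FLOX-HFHS libraries all lay above the controls (10.6% of all tested genes did so), and Atf4 and Ppp1r15a the 2 that all lay below (8.99%). The ATF6/XBP1 genes had a median log2 fold change of 0.24, with 17 of 22 positive, and the median of all genes was -0.01. Without FLOX-NC replicate 1 that median was 0.02 and 12 of 22 were positive.

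The count of 2 depended on single libraries. It was 0 without FLOX-HFHS replicate 2 or 3, and 1 without FLOX-NC replicate 2 or 3, LKO-NC replicate 3 or LKO-HFHS replicate 3. Without FLOX-NC replicate 1 the calls were Eif2ak3, higher, and Ppp1r15a, lower. The absence of ATF6/XBP1 genes among the calls depended on the test and on the libraries used. Of these 22 genes, limma voom with quality weights called Dnajb9, Dnajc3 and Canx higher, beside 1483 of all tested genes. It also called Atf6 and Eif2ak3 higher. Without the libraries numbered 1, edgeR called Derl3 lower, beside 440 of all tested genes. The macrophage and stellate cell markers were higher on the HFHS diet, with a Kupffer cell sum over 10 genes of 63.0 to 118.7 CPM in FLOX-NC and of 156 to 308 in FLOX-HFHS, and a stellate cell and fibroblast sum over 9 genes of 112 to 202 and 244 to 462. The hepatocyte sum ran from 59362 to 126629 CPM in FLOX-NC and from 60388 to 71480 in FLOX-HFHS. Of the 14 hepatocyte markers 12 were negative, with a median log2 fold change of -0.35, and 1 fell. The part of these cell type markers in the results was not tested, and in whole liver fewer cells of a type and less RNA per cell cannot be told apart.

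In LKO livers 4 of the 34 genes fell with the HFHS diet and none rose, and 20 of the 22 ATF6/XBP1 genes had a negative log2 fold change. Over all genes 3.75% were called, 2.25% as higher and 1.5% as lower. The 4 were Sdf2l1, a partner of the BiP chaperone complex, Creld2, a disulphide isomerase of the ER, Herpud1, a membrane protein that assembles the degradation complex, and Ppp1r15a. At an unadjusted p under 0.05, 14 of the 34 genes were lower (7.41% of all tested genes) and 1, Trib3, was higher. The LKO-HFHS libraries all lay below the LKO-NC libraries in 17 of the 34 genes, as in 13% of all tested genes, and all above in 1, as in 16.9%.

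Sdf2l1 (chr16:17130138-17132383) stood at 46.9, 47.8 and 36.1 CPM in LKO-NC and at 11.6, 13.1 and 14.2 in LKO-HFHS. In the FLOX libraries it stood at 11.6, 27.7 and 32.8 on the control diet and at 33.5, 15.6 and 18.3 on HFHS, so the LKO-NC libraries were the highest of all 12 and LKO-HFHS was at the level of the lowest FLOX libraries. Its log2 fold change with diet in LKO livers was -1.75 ± 0.36 (edgeR, adjusted p = 0.0186). Creld2 (chr15:88819646-88826683) stood at 70.1, 42.5 and 40.1 CPM in LKO-NC and at 16.7, 14.7 and 23.3 in LKO-HFHS, with no overlap. In FLOX livers it stood at 33.97, 31.1 and 17.8 CPM on the control diet and at 26.8, 17.3 and 21.4 on HFHS. The change in LKO livers was -1.48 ± 0.31 (edgeR, adjusted p = 0.0188). Herpud1 (chr8:94386438-94395377) stood at 284, 367 and 313 CPM in LKO-NC and at 100.2, 163 and 183 in LKO-HFHS, against 161, 139 and 244 in FLOX-NC and 150.3, 173 and 193 in FLOX-HFHS. Its change with diet in LKO livers was -1.11 ± 0.27 (edgeR, adjusted p = 0.041), the call nearest to the threshold.

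Ppp1r15a stood at 14.2, 15.5 and 13.0 CPM in LKO-NC and at 5.19, 5.84 and 6.21 in LKO-HFHS, a change of -1.31 ± 0.20 (edgeR, adjusted p = 0.00344). Its spread within each of the 4 groups was small beside the difference between diets, and every control-diet library lay above every HFHS library in both genotypes.

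Hspa5, which encodes BiP, stood at 566, 587 and 755 CPM in LKO-NC and at 260, 423 and 456 in LKO-HFHS, against 307, 406 and 457 in FLOX-NC and 362, 493 and 496 in FLOX-HFHS. Only the LKO-NC group stood apart from the other three. The diet difference in LKO livers was -0.74 ± 0.26 (edgeR, adjusted p = 0.143). Hyou1, which exchanges the nucleotide of BiP, was lower by a log2 fold change of -0.997 ± 0.27 (edgeR, adjusted p = 0.0634). Syvn1, the ubiquitin ligase HRD1, was lower by -1.94 ± 0.56 (edgeR, adjusted p = 0.0776), with 180.9 CPM in LKO-NC replicate 1 and 62.3 and 59.8 in the other two libraries of that group. Syvn1 overlaps Mrpl49 on the opposite strand, whose total count was 44.7% of that of Syvn1, and the use of strand in counting is not given in the sources used here. The other genes lower at an unadjusted p under 0.05 were Dnajb11, Manf, Sel1l, Edem1, Ern1, Atf4 and Ddit3. Manf overlaps Dcaf1 on the opposite strand and Rbm15b on its own, with total counts of 16.1% and 10.2% of that of Manf.

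The median log2 fold change of the 22 ATF6/XBP1 genes was -0.48 against 0.05 for all genes. With no scaling factor the median of all genes shifted to 0.32 and that of the 22 genes to -0.19, with 16 of 22 negative. Without scaling none of the 4 calls remained, and 5 of the 34 genes, not 14, were lower at an unadjusted p under 0.05. The 4 sensors ranged from -0.56 for Ern1 to 0.20. The ATF4/CHOP genes differed among themselves. Atf4 stood at 115.3, 93.7 and 119.8 CPM in LKO-NC and at 73.3, 65.6 and 65.5 in LKO-HFHS (-0.69 ± 0.19; edgeR, adjusted p = 0.0658). Ddit3, which encodes CHOP, stood at 19.7, 8.45 and 19.4 CPM in LKO-NC and at 8.33, 4.61 and 5.19 in LKO-HFHS (-1.39 ± 0.43; edgeR, adjusted p = 0.1001), and it overlaps Mars1 on the opposite strand, whose total count was 446% of its own. Trib3, a pseudokinase induced by CHOP, went the other way, from 7.18, 4.57 and 3.79 CPM to 8.19, 10.6 and 9.79 (0.88 ± 0.30; edgeR, adjusted p = 0.129).

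With the replicate number as a block, 9 genes fell in LKO livers, namely Hspa5, Sdf2l1, Creld2, Herpud1, Hyou1, Syvn1, Atf4, Ddit3 and Ppp1r15a. Leaving out 1 library gave 8 falls without FLOX-NC replicate 1, 2 without LKO-NC replicate 2 (Creld2 and Ppp1r15a) or LKO-HFHS replicate 3, and 1 without LKO-NC replicate 1 or LKO-HFHS replicate 1 or 2. The median of the 22 genes was -0.51 without LKO-NC replicate 2. Hepatocyte markers summed to 92050 to 113129 CPM in LKO-NC and to 56802 to 58623 in LKO-HFHS, 13 of the 14 were negative with a median log2 fold change of -0.85, and 3 of them fell. Kupffer cell sums were 61.2 to 101.8 CPM and 191 to 228. Plasma and B cell markers, from cells rich in ER, summed to 11.7 to 20.9 CPM in LKO-NC and 14.0 to 21.4 in LKO-HFHS, and 7 of 9 exocrine pancreas markers were at 0 in all 12 libraries. The part of the hepatocyte and macrophage markers in the result was not tested.

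**Figure D3:**
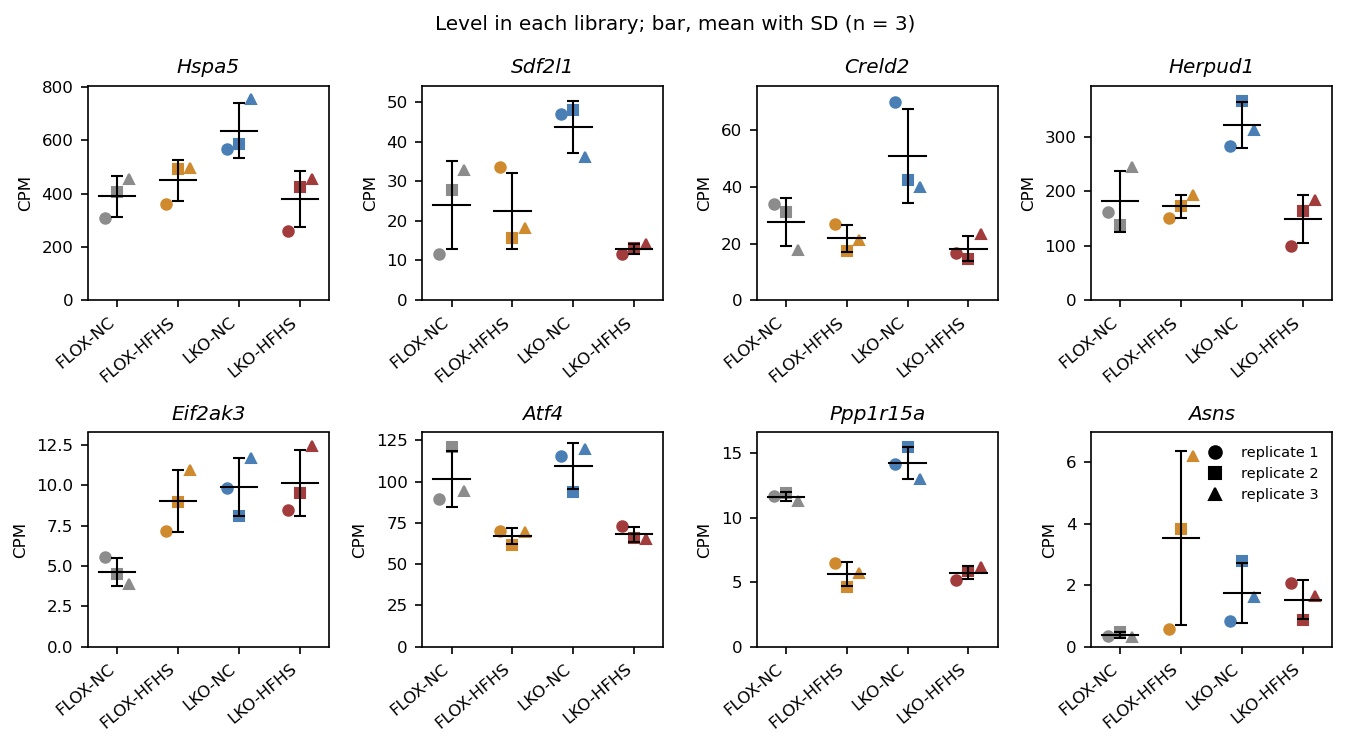
CPM, scaled by TMM, of 8 genes in the 12 libraries, with axes from 0; symbols are replicates, and bars are the mean with SD (n = 3). Ppp1r15a and Atf4 lie lower on HFHS in both genotypes, while Hspa5, Sdf2l1, Creld2 and Herpud1 are highest in LKO-NC.

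Averaged over both genotypes, the HFHS diet lowered 5 of the 34 genes and raised none, while 11.1% of all tested genes were called, 6.17% as higher and 4.94% as lower. The 5 were Ppp1r15a (-1.18 ± 0.14; edgeR, adjusted p = 0.000216), Atf4 (-0.64 ± 0.13; adjusted p = 0.00789), Creld2 (-0.91 ± 0.22; adjusted p = 0.0169), Sdf2l1 (-0.93 ± 0.25; adjusted p = 0.0333) and Dnajb11 (-0.48 ± 0.13; adjusted p = 0.034). This comparison uses the libraries of both diet comparisons above. In FLOX livers alone Sdf2l1 and Creld2 were not called, with differences of -0.10 ± 0.36 and -0.34 ± 0.30 (edgeR, adjusted p = 0.925 and 0.615), against -1.75 and -1.48 in LKO livers. Atf4 and Ppp1r15a were lower in every HFHS library than in every control-diet library of either genotype. Dnajb11, a BiP cochaperone (chr16:22857845-22879634), stood at 39.4, 53.6 and 60.1 CPM in FLOX-NC, 55.6, 59.3 and 52.1 in LKO-NC, 43.0, 35.8 and 40.9 in FLOX-HFHS and 35.2, 37.3 and 36.7 in LKO-HFHS, so FLOX-NC replicate 1 overlapped the HFHS libraries. The count was 2 without FLOX-HFHS replicate 2, and 3 without FLOX-NC replicate 2 or 3, LKO-NC replicate 1 or 2, FLOX-HFHS replicate 3 or any single LKO-HFHS library. Ppp1r15a was called in all 22 alternatives of this comparison. Atf4 lost its call in 1 of them, Creld2 in 2 and Sdf2l1 in 10. Dnajb11 lost its call in 13, of which 11 left out 1 library. Some alternatives also called rises. DESeq2 called Eif2ak3 and Asns higher, voom Atf6, Eif2ak3 and Trib3, and the replicate block Asns. Over all genes these 3 called 1622, 2683 and 1509 higher. Eif2ak3 and Asns were also higher without the 2 libraries of lowest scaling factor. Without the libraries numbered 1, Eif2ak3, Trib3 and Asns were higher, and without FLOX-HFHS replicate 1, Asns was.

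On the control diet, LKO livers were compared with FLOX livers to ask how these genes differed without the HFHS diet. The difference of Lpcat3 itself was -0.56 ± 0.35 (edgeR, adjusted p = 0.718), so its loss was not shown in this comparison. It was -1.51 ± 0.35 on the HFHS diet (edgeR, adjusted p = 0.683) and -1.04 ± 0.25 over both diets (edgeR, adjusted p = 0.515), again without a call. None of the 34 genes passed the edgeR test, nor did any of the 15982 genes (0% called), while DESeq2 called Eif2ak3 and limma voom none of the 34. At an unadjusted p under 0.05, 11 of the 34 genes were higher and 0 lower, against 2.43% of all tested genes higher. The 11 were the chaperones Hspa5, Dnajb9, Sdf2l1, Creld2, Hyou1 and Manf, the degradation genes Herpud1 and Edem1, and Eif2ak3, Atf3 and Asns. All 3 LKO-NC libraries lay above all 3 FLOX-NC libraries in 11 genes, as in 3.98% of all tested genes, and below in 0, as in 4.58%.

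The cochaperone Dnajb9, a target of XBP1, stood at 22.1, 25.6 and 42.9 CPM in FLOX-NC and at 54.8, 74.5 and 97.3 in LKO-NC, a log2 difference of 1.32 ± 0.37 (edgeR, adjusted p = 0.678). Eif2ak3 stood at 5.57, 4.49 and 3.86 CPM and at 9.87, 8.11 and 11.7, a difference of 1.10 ± 0.25 (edgeR, adjusted p = 0.567). Creld2, Herpud1, Sdf2l1, Hyou1 and Hspa5 differed by 0.88 ± 0.30, 0.82 ± 0.27, 0.86 ± 0.36, 0.80 ± 0.27 and 0.71 ± 0.26. Atf3 stood at 8.97, 1.79 and 17.9 CPM in LKO-NC against 3.25, 3.43 and 2.14 in FLOX-NC, so the library labelled LKO-NC replicate 2 was below the controls. Asns stood at 0.818, 2.78 and 1.62 CPM in LKO-NC and at 0.332, 0.484 and 0.304 in FLOX-NC.

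All 22 ATF6/XBP1 genes were positive, with a median of 0.40, while the median of all genes was -0.05. Without FLOX-NC replicate 1, the library lowest for most of these genes, 18 of 22 were positive with a median of 0.18, and 8 of the 34 genes were higher at an unadjusted p under 0.05. That count of 11 was 7 without LKO-NC replicate 1 or 3 and 17 without FLOX-NC replicate 3, where the median of the 22 genes was 0.65. Without the library labelled LKO-NC replicate 2 it was 9, and 22 of 22 were positive with a median of 0.35. Cytosolic heat shock genes, which answer misfolding outside the ER, were positive in 14 of 16 with a median of 0.68 (0.81 without the library labelled LKO-NC replicate 2), and none was called. At an unadjusted p under 0.05, 10 of these 16 were higher and 0 lower, beside 2.43% of all tested genes higher. Hepatocyte markers were positive in 13 of 14 with a median of 0.32. The part of these in the result was not tested.

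On the HFHS diet, the knockout comparison again called none of the 34 genes or of all genes (0%) in edgeR, and DESeq2 called none of the 34. At an unadjusted p under 0.05, Atf3 was higher (1.73% of all tested genes were) and Sdf2l1 and Sel1l, a subunit of the HRD1 complex, were lower (1.52%). Atf3 stood at 2.71, 2.74 and 3.27 CPM in FLOX-HFHS and at 6.51, 8.63 and 8.22 in LKO-HFHS, a difference of 1.42 ± 0.56 (edgeR, adjusted p = 1). It was the 1 gene with all LKO-HFHS libraries above FLOX-HFHS (5.9% of all tested genes), and 6 genes lay below without overlap (5.47%), namely Hsp90b1, Sdf2l1, Hyou1, Pdia3, Sel1l and Ern1. The median of the 22 ATF6/XBP1 genes was -0.30, with 21 negative, beside 0.01 for all genes. Without LKO-HFHS replicate 1 it was -0.18 with 16 negative, and without the libraries numbered 1 it was -0.13 with 18 negative. The 2 genes lower at an unadjusted p under 0.05 became 0 without FLOX-NC replicate 2, LKO-NC replicate 2 or LKO-HFHS replicate 2 or 3, and 4 without FLOX-NC replicate 1. With no scaling factor the median of the 22 was 0.17 with 17 positive, and the median of all genes was 0.45, so the sign of these differences rests on the scaling, while their place below the median of all genes does not.

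Over both diets the knockout called none of the 34 genes and 0% of all genes in edgeR. At an unadjusted p under 0.05 Dnajb9, Eif2ak3 and Atf3 were higher, against 2.34% of all tested genes. This count of 3 was 6 without FLOX-NC replicate 3, 5 without LKO-HFHS replicate 1 and 2 without LKO-NC replicate 3. The difference of Atf3 was 1.56 ± 0.40 (edgeR, adjusted p = 0.597), and it was called by DESeq2 and, in edgeR, without the library labelled LKO-NC replicate 2.

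The diet by genotype interaction asks whether the diet difference was unlike in LKO and FLOX livers. In edgeR 0 of the 34 genes and 0% of all genes were called, and neither DESeq2 nor limma voom called any of the 34. At an unadjusted p under 0.05, 11 of the 34 genes had a more negative diet difference in LKO livers, as 1.74% of all tested genes had, and 0 a more positive one. These were Hspa5, Dnajb9, Sdf2l1, Creld2, Herpud1, Hyou1, Manf, Edem1, Eif2ak3, Ddit3 and Asns, each with an adjusted p of 0.955. Sdf2l1 had an interaction of -1.65 ± 0.51, Hyou1 of -1.29 ± 0.38 and Asns of -3.43 ± 1.002. All 22 ATF6/XBP1 genes were negative, with a median of -0.72 against 0.05 for all genes, and with no scaling factor 19 were negative with a median of -0.30 against 0.40. Without the library labelled LKO-NC replicate 2, 10 of the 34 were more negative, and 22 of 22 were negative with a median of -0.68 against 0.04. The count of 11 was 2 with no scaling factor, 18 with voom, 7 without FLOX-HFHS replicate 3 or LKO-HFHS replicate 1, and 17 without FLOX-NC replicate 3. Without the libraries numbered 1 the median of the 22 was -0.36, with 19 negative, and that of all genes 0.01. The difference between genotypes in the response of these genes was therefore not shown at the threshold. The knockout comparison on the control diet, the diet comparison in LKO livers and the interaction share the LKO-NC libraries, so their counts are not separate evidence.

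**Figure D4:**
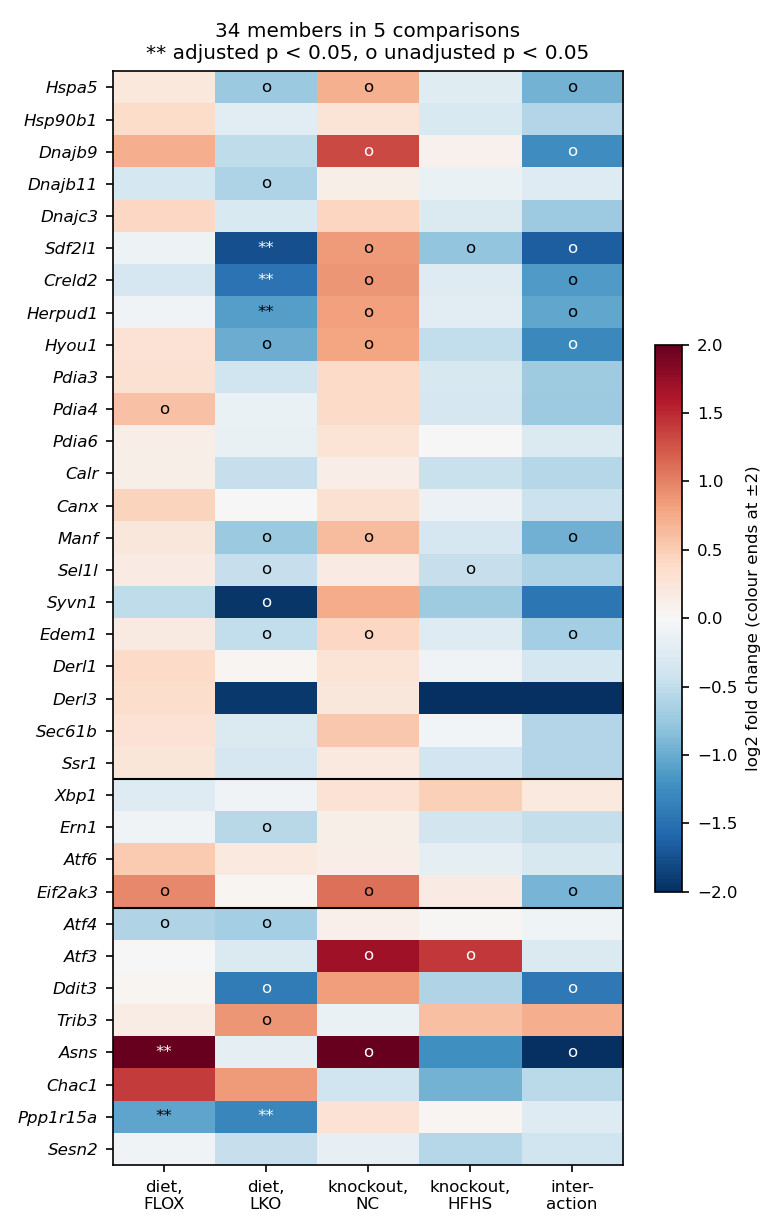
Log2 fold change of the 34 genes in 5 comparisons (columns), with colour ending at ±2; lines part the ATF6/XBP1 genes, the sensors and the ATF4/CHOP genes. Double stars mark the adjusted p under 0.05 in edgeR (Asns and Ppp1r15a in FLOX; Sdf2l1, Creld2, Herpud1 and Ppp1r15a in LKO livers), and circles the unadjusted p under 0.05.

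The groups of genes moved apart between libraries. The median log2 level of the 22 ATF6/XBP1 genes, relative to the FLOX-NC mean of each gene, was -0.49, 0.09 and 0.43 in the FLOX-NC libraries, 0.46, 0.58 and 0.51 in LKO-NC, 0.36, 0.28 and 0.37 in FLOX-HFHS and -0.29, 0.15 and 0.12 in LKO-HFHS. The LKO-NC libraries were thus the highest of the 12, and FLOX-NC replicate 1 was the lowest, while FLOX-NC replicate 3 lay above every HFHS library. The 8 ATF4/CHOP genes showed no such order, at 0.02, 0.23 and -0.17 in FLOX-NC, 0.72, -0.04 and 0.21 in LKO-NC, 0.09, -0.06 and 0.19 in FLOX-HFHS and 0.25, 0.14 and 0.09 in LKO-HFHS.

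**Figure D5:**
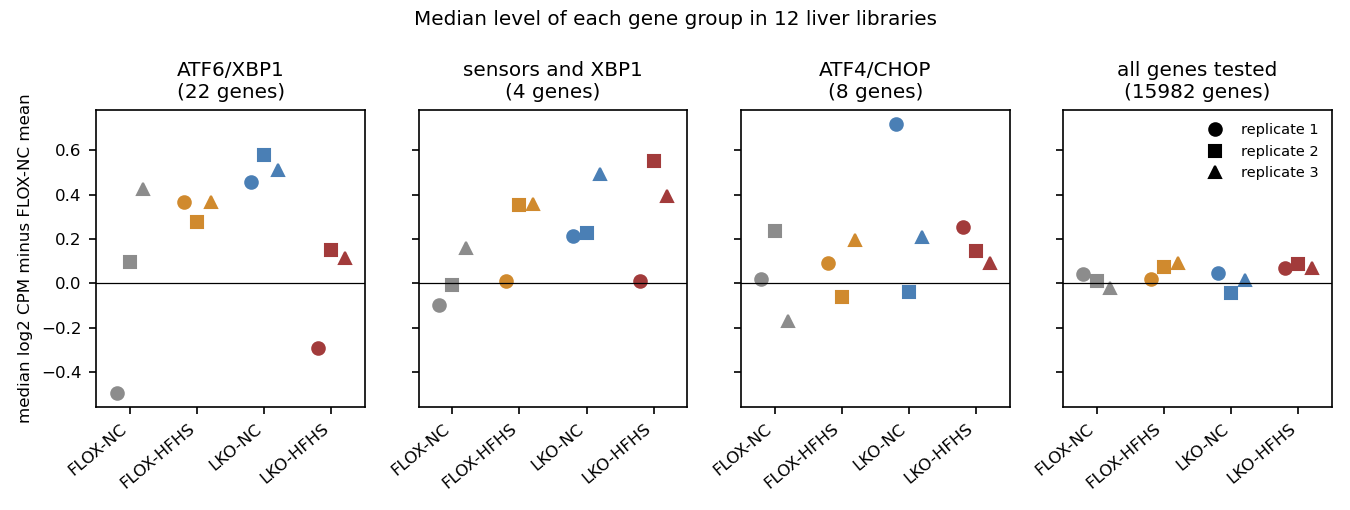
Median over genes of the log2 CPM minus the FLOX-NC mean of each gene, by library, for 3 gene groups and for all 15982 genes tested. The ATF6/XBP1 genes reach 0.46 to 0.58 in LKO-NC and -0.49 in FLOX-NC replicate 1, while the medians of all genes stay near 0.

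Among 65 further genes of ER folding, degradation and translocation, FLOX livers on the HFHS diet had 1 rise, Creb3l2, a transcription factor of the OASIS family (1.34 ± 0.32; edgeR, adjusted p = 0.0407), and 1 fall, Creb3l3, the hepatic factor CREBH (-1.05 ± 0.20; adjusted p = 0.0134). In LKO livers Crebrf rose (1.14 ± 0.20; edgeR, adjusted p = 0.00812), and Pdia5 (-0.88 ± 0.22; adjusted p = 0.0441) and Ganab, the catalytic subunit of glucosidase II (-0.69 ± 0.17; adjusted p = 0.0421), fell. The 1 rise and 1 fall in FLOX livers stood beside 1.6% and 1.31% of all tested genes. The 1 rise and 2 falls in LKO livers stood beside 2.25% and 1.5%. Pdia5 stood at 30.3, 26.8 and 33.0 CPM in LKO-NC and at 17.7, 14.4 and 16.9 in LKO-HFHS. With each of the 12 libraries left out in turn, an alternative chosen after seeing the data, Crebrf was called every time, Creb3l3 in all but FLOX-HFHS replicates 2 and 3, and Creb3l2, Pdia5 and Ganab in 2 of 12. Those 2 were FLOX-NC replicates 1 and 3, so without the library labelled LKO-NC replicate 2 the list had 1 rise and 0 falls in LKO livers. The knockout on the control diet called 0 of the 65, with 53 positive and a median of 0.22. The HFHS diet over both genotypes had 2 rises and 7 falls among them, beside 6.17% and 4.94% of all tested genes, and 1 rise and 4 falls without the library labelled LKO-NC replicate 2. Those of smallest p, each called with any 1 library left out, were Crebrf (0.93 ± 0.14), Creb3l3 (-0.82 ± 0.14), Pdia5 (-0.87 ± 0.15) and Ganab (-0.59 ± 0.12).

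Of 52 tested further genes of the integrated stress response, the transcription cofactor Nupr1 and the serine synthesis enzyme Psat1, both targets of ATF4, rose with the HFHS diet in both genotypes. Nupr1 stood at 1.03, 2.75 and 0.393 CPM in FLOX-NC, at 0.791, 0.551 and 0.829 in LKO-NC, at 5.82, 6.65 and 8.73 in FLOX-HFHS and at 8.52, 4.34 and 11.03 in the LKO-HFHS libraries. The log2 fold change of Nupr1 was 2.34 ± 0.57 in FLOX (edgeR, adjusted p = 0.0453) and 3.45 ± 0.60 in LKO livers (adjusted p = 0.00711). Psat1 was at or below 0.236 CPM in all control-diet libraries, and changed by 4.99 ± 0.97 (edgeR, adjusted p = 0.0167) and 4.25 ± 0.93 (adjusted p = 0.0232). The amino acid transporter Slc38a2 fell in both, by 0.94 ± 0.22 on the log2 scale in FLOX (edgeR, adjusted p = 0.036) and by 1.35 ± 0.22 in LKO livers (adjusted p = 0.00516). In LKO livers Pck2 rose (1.19 ± 0.30; edgeR, adjusted p = 0.0477) and Cth fell (-1.74 ± 0.43; adjusted p = 0.0433). In FLOX livers 2 of the 52 rose and 1 fell, beside 1.6% and 1.31% of all tested genes. In LKO livers 3 rose and 2 fell, beside 2.25% and 1.5%. The interaction, which asks whether these changes differed between genotypes, called 0 of the 52 in edgeR. It called 0% of all tested genes as well, so this does not show that the genotypes were alike. In it 36 of the 52 were negative, with a median of -0.34 against 0.05 for all genes. At an unadjusted p under 0.05, 1 of the 52 was lower and 0 higher. With 1 library left out, Nupr1 and Slc38a2 were called all 12 times in LKO livers, but 3 and 2 times in FLOX livers. Psat1 was called 10 times in FLOX and 7 times in LKO livers, Pck2 3 times and Cth 4 times. Without the library labelled LKO-NC replicate 2, Psat1, Pck2 and Cth were not called in LKO livers. Over both genotypes 7 of the 52 rose and 3 fell, where 11.1% of all tested genes were called, and without that library 6 rose and 2 fell. Those of smallest p, called with any 1 library left out, were Slc38a2 (-1.15 ± 0.15), Nupr1 (2.90 ± 0.41), Psat1 (4.62 ± 0.67) and the transcription factor Atf5 (0.78 ± 0.16). Pck2 and Cth were also called over both genotypes with any 1 library left out.

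The splicing of Xbp1 by IRE1 alpha could not be read from these tables. The 5-exon transcript took 92.1% to 98.0% of the Xbp1 transcript counts of a library, and the 6-exon transcript stood at 0 counts in all 12. Xbp1 itself stood at 64.7 to 143 CPM in FLOX-NC, 109.1 to 165 in LKO-NC, 76.2 to 99.3 in FLOX-HFHS and 84.5 to 159 in LKO-HFHS. The groups compared with each other overlapped, while every LKO-NC library lay above every FLOX-HFHS library. No comparison called Xbp1.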

How the data were processed

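The deposited gene and transcript tables hold whole-number estimated counts, judged from their values to be unnormalized, and the authors' FPKM values per gene were used for levels per length only. The submitters' processing notes list HISAT2, StringTie, edgeR, cutadapt and FastQC and the build mm10; tool versions, settings and roles are not given in the sources used here. The labels name a stranded messenger RNA kit together with a further library preparation kit. The edgeR test was fixed on the assumption of read counts, and it was applied unchanged to the estimates, which were whole numbers already. Ddit3 has a further identifier with 2 counts in all, which was not used.

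All genes were fitted with edgeR 4.0.16 in R 4.3.3 (TMM, filterByExpr, robust quasi-likelihood fit) over the 12 libraries in 4 groups, which left 8 residual degrees of freedom, for 7 comparisons. Adjusted p is Benjamini-Hochberg over 15982 genes, with calls under 0.05, and the SE is the log2 fold change over the square root of F. A group difference without overlap means that every library of 1 group exceeded every library of the other. The 34 genes, the further gene lists and the marker lists were chosen with earlier results of these data known. All 34 genes are named; those called in any comparison are given by library, and from the further lists up to 4 called genes of smallest p in a comparison.

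Replicates of a group were not the same library (the least chi-square per gene between replicates, relative to counting error, was 81.8). Deviations from the group means of same-numbered libraries correlated at 0.101 to 0.294 in the diet comparison of LKO livers, all above 0.1, so a fit blocked on replicate number is reported with that comparison. Pairs of unlike number in that comparison ran from -0.212 to 0.111, which reaches above the lowest same-numbered value. The highest, 0.294, was between the replicates 1, where ribosomal and mitochondrial RNA took 37.4% in LKO-NC and 48.3% in LKO-HFHS. Whether the block follows a pairing or this share was not tested. The pairing comes from this correlation and from no label. In the other comparisons between groups the lowest correlation was below 0.1. Alternatives were RLE or no scaling, no or a stricter filter (1 CPM in 3 libraries), DESeq2 1.42.0, limma voom 3.58.1 with quality weights, the block, the 6 libraries of a comparison alone, each library left out (for the further lists chosen after seeing the data), ribosomal RNA and mitochondrial genes left out, and the libraries of low scaling factor or numbered 1 left out.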

Additional observations from a re-analysis of the deposited data

Results flagged for a closer look

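In 2 of the 34 genes every LKO library lay above every FLOX library on the control diet and below every FLOX library on the HFHS diet. Sdf2l1 stood at 36.1 to 47.8 CPM in LKO-NC against 11.6 to 32.8 in FLOX-NC, and at 11.6 to 14.2 in LKO-HFHS against 15.6 to 33.5 in FLOX-HFHS. Its diet by genotype interaction was -1.65 ± 0.51 on the log2 scale, with an adjusted p of 0.955 over all genes in edgeR (0.00624 before adjustment), so it did not pass the correction. Hyou1 stood at 59.3 to 76.0 CPM in LKO-NC against 22.6 to 53.7 in FLOX-NC, and at 33.0 to 37.6 in LKO-HFHS against 42.1 to 52.7 in FLOX-HFHS. Its interaction was -1.29 ± 0.38, with an adjusted p of 0.955 in edgeR (0.00492 before adjustment).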

How the results depend on the processing

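Of 1354 alternative values of the 60 gene and comparison pairs with an unadjusted p under 0.05, 1217 kept their direction and side of the threshold, 62 lost a call, 75 gained one and 0 changed direction. Only 11 of the 60 pairs were called, and all 62 losses fell on these. The pairs were picked by their p in the same data and the alternatives share most libraries. A change of direction was therefore unlikely from the start, and its absence is no measure of stability. For the diet in FLOX livers, 2 genes were called, 0 with no scaling factor or with the 6 libraries alone, 4 with DESeq2 or without the libraries numbered 1, 8 with voom, 3 with the replicate block, and 0 to 3 with 1 library left out. For the diet in LKO livers, 4 were called, 0 with no scaling factor, 11 with DESeq2, 14 with voom, 9 with the replicate block, 8 alone, 10 with the 2 libraries of lowest scaling factor left out, and 1 to 8 with 1 library left out. Trib3 was called higher in LKO livers with voom and without the libraries numbered 1. For the diet over both genotypes, 5 were called, 2 with no scaling factor, 9 with DESeq2 or the replicate block, 11 with voom or with the 2 libraries of lowest scaling factor left out, 10 without the libraries numbered 1, and 2 to 6 with 1 library left out. The knockout called 0 on the control diet and 1 with DESeq2, 0 on the HFHS diet in every alternative, and over both diets 0, 1 with DESeq2 and 0 to 1 with 1 library left out. The interaction called 0 in every alternative, the replicate block included. Without ribosomal RNA and mitochondrial genes the 3 diet comparisons called 2, 4 and 5, the same genes as before. The cause of these moves was not tested.

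The call of Ppp1r15a in LKO livers was lost with no scaling factor alone. Sdf2l1 lost its call there in 6 of 23 alternatives, Creld2 in 5 and Herpud1 in 11, and Asns in FLOX livers in 9. With no scaling factor the calls over all genes in LKO livers were 410 higher and 99 lower, against 359 and 240, and over both genotypes 888 and 376, against 986 and 790. The median of all genes then moved from 0.05 to 0.32 in LKO livers, from 0.02 to 0.12 over both genotypes, from -0.02 to 0.25 for the knockout over both diets, from 0.01 to 0.45 for the knockout on HFHS and from 0.05 to 0.40 for the interaction.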

Other observations

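Of 16 genes of the cytosolic heat shock response, 4 fell with the HFHS diet in LKO livers and none in FLOX livers (edgeR's quasi-likelihood test), beside 1.5% of all tested genes called lower in LKO livers. The interaction called none of the 16, with 6 more negative in LKO livers at an unadjusted p under 0.05. Hspa1b, the inducible HSP70, stood at 96.7, 82.3 and 143.6 CPM in LKO-NC and at 23.3, 16.0 and 29.0 in LKO-HFHS, a log2 fold change of -2.24 ± 0.30 (edgeR, adjusted p = 0.00191). In FLOX livers it stood at 33.4, 30.0 and 18.1 CPM on the control diet and at 20.7, 24.1 and 19.9 on HFHS. Dnajb1, a cochaperone of HSP70, stood at 87.4, 53.7 and 358 CPM in LKO-NC and at 22.8, 26.5 and 24.7 in LKO-HFHS (-2.75 ± 0.54; edgeR, adjusted p = 0.0137), with 1 LKO-NC library far above the others. Hspa1a (-3.08 ± 0.49; edgeR, adjusted p = 0.00455) and Bag3 (-1.42 ± 0.24; edgeR, adjusted p = 0.00685) were the other two. Without the library labelled LKO-NC replicate 2, 5 fell, the 4 and Hspb1, and 7 of the 16 were more negative in the interaction at an unadjusted p under 0.05. Dnajb1 lost its call without LKO-HFHS replicate 1 or 3. Over both genotypes the same 4 genes fell, beside 4.94% of all tested genes called lower. They also fell without the library labelled LKO-NC replicate 2. With all libraries the falls were 1.84 ± 0.33 for Hspa1a, 1.29 ± 0.21 for Hspa1b, 1.45 ± 0.36 for Dnajb1 and 1.05 ± 0.17 for Bag3 on the log2 scale.

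Of 17 clock and clock output genes, which set the daily rhythm of the liver, edgeR called 0 in each of the 7 comparisons, and at an unadjusted p under 0.05 at most 2 were higher and at most 3 lower in a comparison. The time of day of sampling is not given in the sources used here.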
